A study of Mus musculus with 15 samples.

Results

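Ruminococcaceae, Butyricicoccaceae and Christensenellaceae, 3 families of anaerobic gut Clostridia, were followed in mouse stool by 16S rRNA gene sequencing. Counts are per ASV, the amplicon sequence variant, which stands for 1 exact sequence read from the amplified gene. Variants were taken by the family or genus assigned to them and are numbered by total count over the series. The families and genera were chosen with earlier results of these data known. They made up 38 of 507 variants with a count and 1.06% of 1403011 counts. Ruminococcaceae held 31 of these variants, Butyricicoccaceae 5 and Christensenellaceae 2. Summed per genus they fell into 10 of 109 genera or lowest named ranks, where rows of a family with no genus name, or with Incertae Sedis in its place, were counted under the family.

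Members of these families ferment plant fibre, resistant starch and host sugars to short-chain fatty acids in the colon. Butyrate, the product of several of them, is the main fuel of colonic epithelial cells, and a loss of its producers is a common feature of inflamed bowel. Christensenellaceae are a heritable family of the human gut. Butyricicoccaceae take their name from butyrate-forming cocci.

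All mice were littermates that lacked Gpr15l, the gene of a peptide ligand of the receptor GPR15; the titles write the genotype as Gpr15-/-, and no wild-type mouse was included. All received dextran sulfate sodium (DSS), which injures the colonic epithelium. The GPR15L arm was given recombinant human GPR15L and the PBS arm phosphate-buffered saline, rectally per the series title, each day from day 3 to day 9. Stool taken before DSS, and so before any peptide, gave libraries 1 to 3 from mice of the GPR15L arm. Libraries 4 to 6 came from mice of the PBS arm at that time (n = 3 each). After DSS, libraries 8 to 11 came from GPR15L-treated and 12 to 15 from PBS-treated mice (n = 4 each). The age of the mice is not in the labels. Library 7 is titled PBS after DSS but carries a library name from the run taken before DSS, so it was kept out of every comparison and is described on its own. No library is tied to a cage, and 3 to 4 mice shared one, so arm and cage cannot be told apart. Time and the run of library names cannot be told apart either.

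Totals ran from 48847 to 197433 counts per library, and values are percentages of a library's total. A share is relative: it moves when other bacteria change, and the number of 16S gene copies differs between taxa. No count in a whole group allows a share of up to 0.000912% in the GPR15L arm before DSS, 0.000872% in the PBS arm before DSS, 0.000912% with GPR15L after DSS and 0.00128% with PBS after DSS. These limits are 3 counts over the group's summed total and cover counting error only; "at least" folds are set against them. Means are given with SD. Tests are edgeR quasi-likelihood tests over all 282 variants, 78 genera or 38 families kept, with Benjamini-Hochberg adjustment at 0.05. They measure the spread between libraries.

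Together the 3 families made up 0.320%, 1.57% and 0.434% of counts in libraries 1 to 3 and 1.22%, 0.991% and 0.247% in libraries 4 to 6. After DSS they made up 1.26%, 2.46%, 0.469% and 0.680% with GPR15L (libraries 8 to 11) and 1.45%, 1.17%, 4.92% and 1.78% with PBS (libraries 12 to 15). The groups overlapped throughout, and the mean with PBS after DSS (2.33% ± 1.75, n = 4) leaned on library 14, without which it was 1.47%. At an equal depth of 48847 counts, 8.94 ± 1.01 variants of these families were found in the GPR15L arm (n = 3) and between 3.00 and 23.1 in the 3 libraries of the PBS arm before DSS. After DSS the numbers were 7.97 ± 2.41 with GPR15L and 13.0 ± 2.70 with PBS (n = 4 each), and every PBS library held more than every GPR15L library. Variants of any kind numbered 152 ± 21.4 with GPR15L and 178 ± 5.51 with PBS at that depth, with overlap between the arms; the part of overall richness in the difference was not tested.

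**Figure D1:**
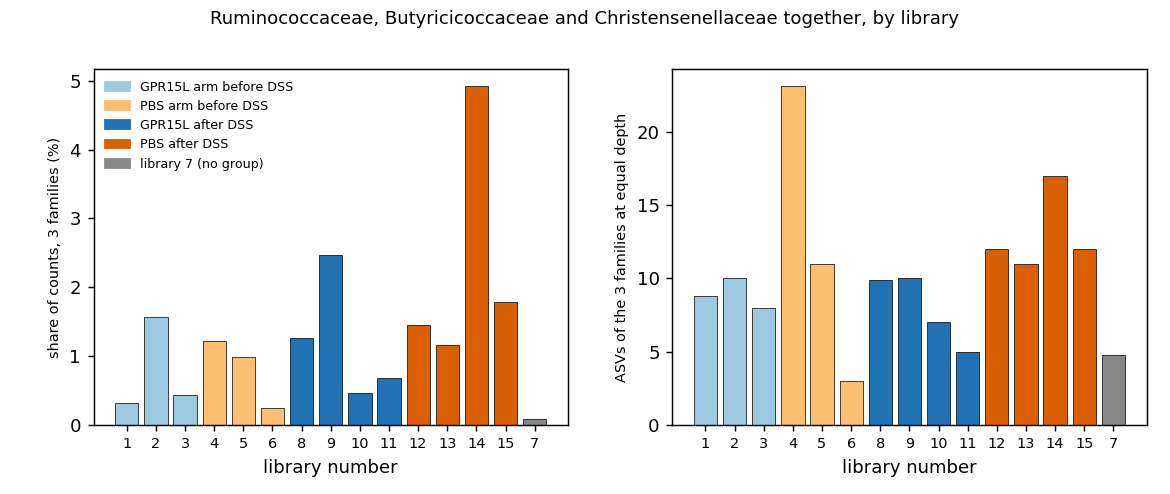
Share of all counts (left, %) and number of variants at equal depth (right) of the 3 families in each of the 15 libraries; bars are single libraries and colours are groups. Library 14 has the highest share (4.92%), library 4 the most variants (23.1), and library 6 the fewest (3.00).

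Library 6 of the PBS arm stood apart from libraries 4 and 5. It held 3 variants of these families against 24 and 11, and 92 variants of any kind against 301 and 175. Counts assigned to eukaryotes, mitochondria, chloroplasts or no phylum made up 1.36% of its counts, the highest share of all 15 libraries, against 0.00101% to 0.724% elsewhere; their part in the result was not tested. Library 6 is named below wherever a result changed without it.

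Of the 15 variants with a count with GPR15L after DSS and the 18 with PBS, 6 were common to both arms, which is 40.0% of the first set and 33.3% of the second. Over all variants the arms shared 132 after DSS, 55.2% of those with GPR15L and 53.9% of those with PBS. Before DSS 14 variants were shared by the arms, 82.4% of the 17 in the GPR15L arm and 53.8% of the 26 in the PBS arm, against 78.9% and 68.5% over all variants. Whether the families differ from the rest in this was not tested. In every PBS library and no GPR15L library after DSS there were 5 variants (ASV119, ASV106, ASV139, ASV204 and ASV245), and in every GPR15L library and no PBS library 1 (ASV185); of all 507 variants, 8.09% and 3.55% were distributed in these ways. The same 6 variants passed the edgeR test, out of 21 tested: 5 lower with GPR15L, where 17.4% of all tested variants were lower, and 1 higher, where 10.6% were higher. Among 9 tested genera 4 were lower (10.3% of all genera) and 1 was higher (3.85%). Among the 3 families Christensenellaceae was lower (15.8% of all families). The median log2 difference over the 20 tested variants with a fold, with variants at 0 set to their bound, was -3.12, against -0.44 over all variants. Before DSS, over the 18 with a fold, it was -1.73 against -0.82, also below 0 in the GPR15L arm before any peptide.

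**Figure D2:**
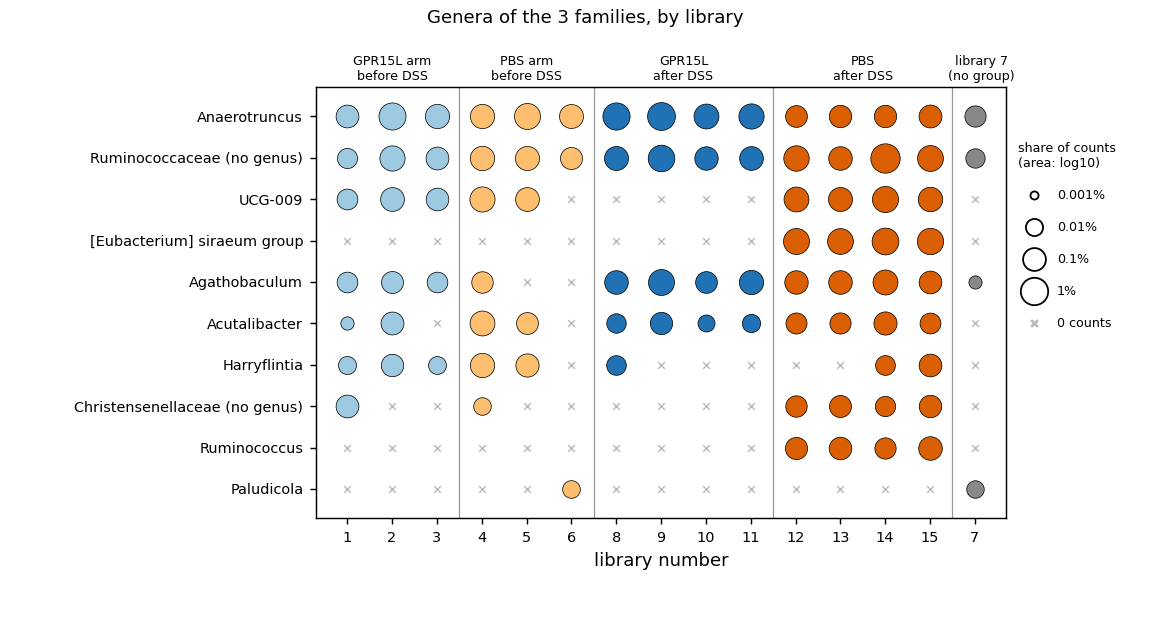
Share of counts of the 10 genera or lowest named ranks (rows) in each library (columns, grouped by arm and time); dot area follows the log10 of the share and a cross marks no count. The [Eubacterium] siraeum group and Ruminococcus have dots in libraries 12 to 15 alone, and UCG-009 and Christensenellaceae have crosses in libraries 8 to 11.

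The [Eubacterium] siraeum group, relatives of a gut anaerobe that grows on plant polysaccharide, was found in the PBS arm after DSS and in no other group. Its single variant, ASV119, made up 0.469%, 0.422%, 0.718% and 0.567% of counts in libraries 12 to 15 and had no count in the other 11 libraries. ASV119 met the rule for testing, a count in 3 or more libraries, through libraries 12 to 15 alone. The p-values below therefore restate this distribution and are no separate support for it. The mean with PBS was 0.544% ± 0.131 (n = 4), at least 597-fold above the GPR15L arm (edgeR adjusted p = 0.00287 as a genus and 0.00523 as a variant). It was also at least 624-fold above the PBS arm before DSS (edgeR adjusted p = 0.00611 as a genus and 0.0151 as a variant), with no overlap between libraries. Over DSS, ASV119 no longer passed without library 12 or 15 (edgeR adjusted p = 0.0586 and 0.0571) or with library 7 as titled (0.0896; range over alternatives 7.13e-06 to 0.0896), which also ended the genus call (0.0774). In libraries 12 to 15 it held 32.3%, 36.1%, 14.6% and 31.8% of all counts of the 3 families.

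Ruminococcus, a genus with specialised degraders of cellulose and resistant starch, had the same distribution at a lower level. Its single variant, ASV245, made up 0.0735%, 0.0899%, 0.0501% and 0.142% in libraries 12 to 15 and had no count elsewhere. ASV245, too, was tested only because of libraries 12 to 15, so its p-values are likewise no separate support. The mean with PBS was 0.0889% ± 0.0391 (n = 4), at least 97.5-fold above the GPR15L arm (edgeR adjusted p = 0.0201 as a genus and 0.0205 as a variant) and at least 102-fold above the PBS arm before DSS (0.0437 and 0.0707). Library 14, the highest for ASV119, was the lowest for ASV245. Without library 8 or 9, or with library 7 as titled, the genus call between the arms was lost (edgeR adjusted p = 0.0535, 0.0509 and 0.0791; range over alternatives 0.000735 to 0.0791). The genus call over DSS was lost without library 4, 5, 12, 13, 14 or 15 (edgeR adjusted p = 0.0540, 0.0730, 0.0952, 0.0811, 0.101 and 0.113) and held in 3 of 13 alternatives (range 0.00679 to 0.123).

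UCG-009, a genus of Butyricicoccaceae known by its sequence only, was present before DSS in both arms and after DSS with PBS alone. Its main variant, ASV106, made up 0.0405%, 0.154% and 0.0909% in libraries 1 to 3 and 0.304%, 0.156% and 0% in libraries 4 to 6. After DSS it had no count in libraries 8 to 11 and made up 0.266%, 0.174%, 0.507% and 0.217% in libraries 12 to 15. The genus with PBS (0.291% ± 0.149, n = 4) was at least 319-fold above GPR15L (edgeR adjusted p = 0.00756), and this call held under all 14 alternatives. In the GPR15L arm the genus was at 0.0952% ± 0.0570 (n = 3) before DSS, at least 104-fold above its level after DSS (edgeR adjusted p = 0.0217). Without library 3, 8, 9, 10 or 11 that call was lost (edgeR adjusted p = 0.0556 to 0.0775; range over alternatives 1.98e-06 to 0.0775), whereas ASV106 alone passed in all 12 alternatives (main edgeR adjusted p = 0.0125). The second variant, ASV474, had 3 counts in library 4.

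Christensenellaceae were scattered before DSS and present in all PBS libraries after it. The family made up 0.0972% in library 1 and 0.0117% in library 4, with no count in the other libraries before DSS or in libraries 8 to 11. In libraries 12 to 15 it made up 0.0527%, 0.0679%, 0.0324% and 0.0830%, a mean of 0.0590% ± 0.0216 (n = 4) that was at least 64.8-fold above GPR15L. As a family it passed between the arms (edgeR adjusted p = 0.0251), as a genus rank at 0.0437 and as ASV204, which held 341 of its 347 counts, at 0.0433. The ASV204 call held in 3 of 13 alternatives (edgeR adjusted p up to 0.0895) and the genus rank in 2 of 14 (up to 0.0990), the latter lost also with total-count scaling (0.0532) and without a filter (0.0505). Leaving out any 1 of libraries 8 to 15 ended both. The family call was lost without library 8, 9, 10, 11, 14 or 15 (edgeR adjusted p = 0.0651, 0.0730, 0.0525, 0.0625, 0.0531 and 0.0540) and with library 7 as titled (0.0934), with a range over alternatives of 0.000495 to 0.0934. The other variant, ASV417, had 6 counts, in libraries 12 and 14.

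Anaerotruncus, an anaerobe that forms acetate and butyrate, was the genus of these families that was higher with GPR15L after DSS. It made up 0.893%, 1.29%, 0.266% and 0.318% in libraries 8 to 11 and 0.0622%, 0.0819%, 0.0781% and 0.102% in libraries 12 to 15, with no overlap. The means were 0.691% ± 0.488 and 0.0811% ± 0.0165 (n = 4 each), an 8.52-fold difference (log2 fold change 2.87 ± 0.79 SE, edgeR adjusted p = 0.0211). Before DSS it stood at 0.0972%, 0.847% and 0.191% in libraries 1 to 3 and 0.189%, 0.475% and 0.165% in libraries 4 to 6. Over DSS neither arm passed (edgeR adjusted p = 0.848 with GPR15L and 0.154 with PBS), and the courses were not shown to differ (0.258). The mean in the PBS arm was 3.41-fold lower after DSS, with no overlap between libraries. In the GPR15L arm it was 1.83-fold higher, with overlap. Without library 8, 9, 12, 13, 14 or 15 the arms after DSS no longer passed (edgeR adjusted p = 0.0547, 0.0565, 0.0716, 0.0558, 0.0537 and 0.0653), nor with library 7 as titled (0.0655; range over alternatives 4.82e-05 to 0.0716).

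ASV65 held 3928 of the 4435 counts of Anaerotruncus and was in every library after DSS. Tested as a variant it did not pass between the arms (log2 fold change 3.19 ± 1.35 SE, edgeR adjusted p = 0.0789). In library 6 ASV65 was absent and ASV209, at 0.165%, made up the whole genus. ASV209 was otherwise at 0.00924% in library 4, 0.0111% in library 8 and 0.0430% in library 7. ASV265 was found in libraries 2 and 4 and ASV340 in library 5.

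**Figure D3:**
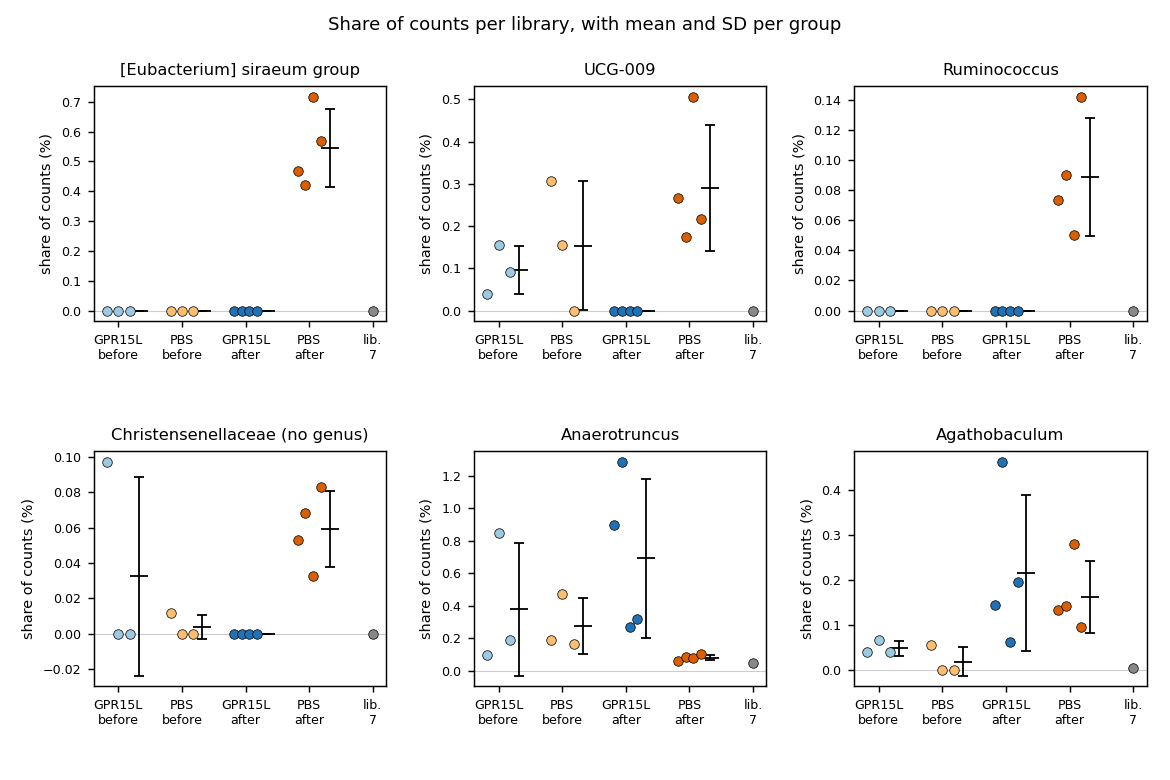
Share of counts (%) of 6 genera or ranks per library (points), with the mean (dash) and SD (bar) of each group beside them; library 7 stands alone at the right. The 4 libraries with PBS after DSS lie above all GPR15L libraries after DSS in 4 panels, below them for Anaerotruncus, and among them for Agathobaculum.

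Agathobaculum, a butyrate-producing genus of Butyricicoccaceae, did not pass as a genus between the arms after DSS, while 1 of its variants did. The genus made up 0.144%, 0.462%, 0.0606% and 0.195% in libraries 8 to 11 and 0.132%, 0.142%, 0.279% and 0.0942% in libraries 12 to 15 (log2 fold change 0.20 ± 1.20 SE, edgeR adjusted p = 1.00). ASV185 made up 0.0381%, 0.149%, 0.0606% and 0.114% in libraries 8 to 11 and had no count in libraries 12 to 15. Its mean with GPR15L, 0.0904% ± 0.0503 (n = 4), was at least 70.4-fold above PBS (edgeR adjusted p = 0.0178; 0.0397 or lower under all 13 alternatives). ASV143 was shared: it made up 0.106%, 0.313%, 0% and 0.0805% in libraries 8 to 11 and the whole genus in libraries 12 to 15 (edgeR adjusted p = 1.00). The GPR15L libraries therefore held ASV185 with or without ASV143, and the PBS libraries ASV143 alone.

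Before DSS the genus looked different again. ASV143 had no count in libraries 1 to 6, while ASV185 made up 0.0223%, 0.0670% and 0.0383% in libraries 1 to 3 and 0.0253% in library 4. ASV143 was thus at least 137-fold higher after DSS in the GPR15L arm (edgeR adjusted p = 0.0285) and at least 185-fold higher in the PBS arm, where it did not pass (0.0519) although the libraries did not overlap. The call in the GPR15L arm was lost without library 1, 2, 3, 8 or 9 (edgeR adjusted p = 0.0675, 0.0702, 0.0743, 0.0560 and 0.0621; range over alternatives 6.87e-05 to 0.0743). ASV299 was found in libraries 1 and 4.

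**Figure D4:**
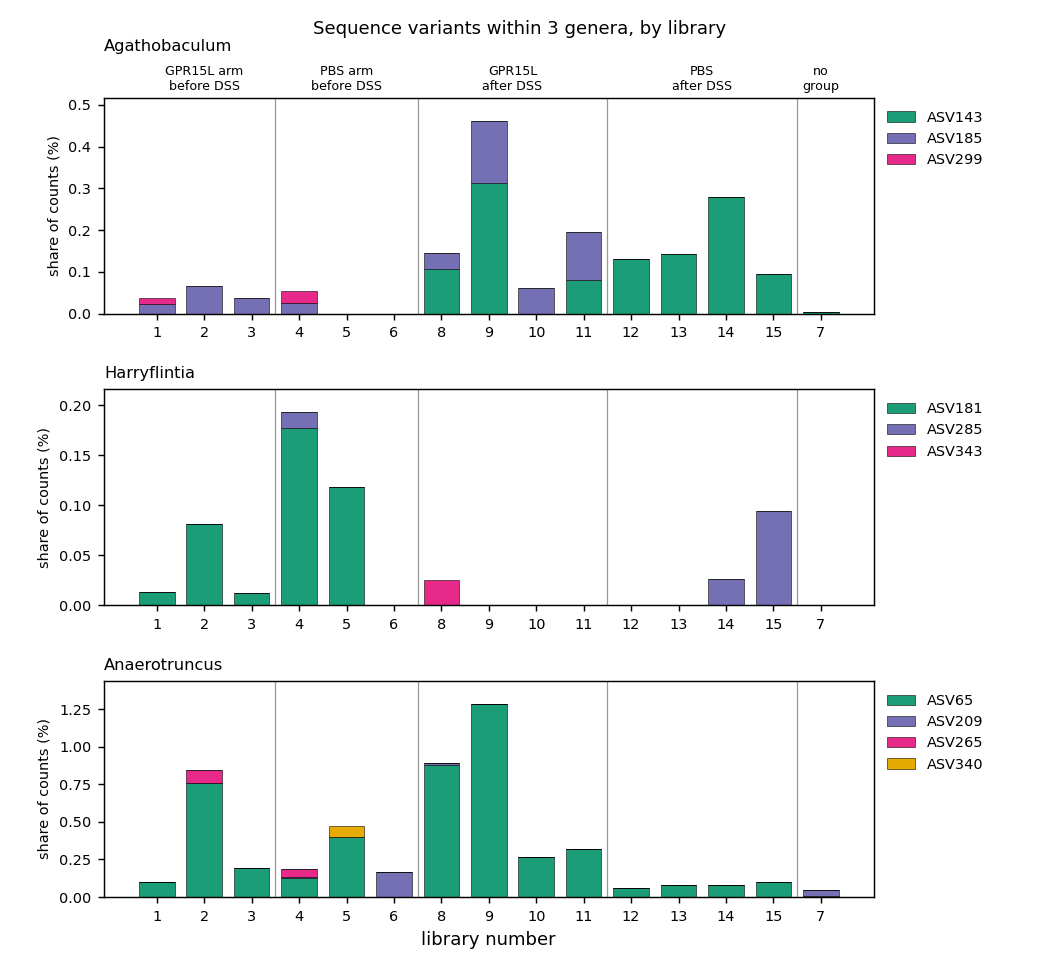
Share of counts (%) of each variant of Agathobaculum, Harryflintia and Anaerotruncus, stacked per library, in the order of groups given above the top panel. For Agathobaculum, ASV143 alone fills the bars of libraries 12 to 15, and ASV185 is part of every bar of libraries 8 to 11.

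Harryflintia, an acetate-forming genus, had a main variant that was found before DSS and in no library after it. ASV181 made up 0.0137%, 0.0815% and 0.0128% in libraries 1 to 3, 0.177% and 0.119% in libraries 4 and 5 and 0% in library 6, and it had no count in any of the 8 libraries after DSS. It fell in the GPR15L arm, from 0.0360% ± 0.0394 (n = 3) to 0, at least 39.5-fold (edgeR adjusted p = 0.0484), and did not pass in the PBS arm (0.0836). The call held in 2 of 12 alternatives, with an edgeR adjusted p of up to 0.0944, and was lost without any 1 of libraries 1, 2, 3, 8, 9, 10 or 11. Without library 6, ASV181 also passed in the PBS arm (edgeR adjusted p = 0.0367). After DSS the genus was found in 3 of 8 libraries, as ASV343 in library 8 and as ASV285, which library 4 had also held, in libraries 14 and 15. The genus total passed in no comparison (lowest edgeR adjusted p = 0.448).

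Ruminococcaceae without a named genus formed the most varied rank, with 12 variants. Its total made up 0.170%, 0.640%, 0.132% and 0.152% in libraries 8 to 11 and 0.352%, 0.142%, 3.12% and 0.441% in libraries 12 to 15 (edgeR adjusted p = 0.164). Library 14 owed its level to ASV105 (1.30%), ASV139 (1.09%) and ASV115 (0.541%). ASV139 had no count in libraries 8 to 11; its shares in libraries 12 to 15 were 0.00942%, 0.0340%, 1.09% and 0.0543%. It was lower with GPR15L (edgeR adjusted p = 0.0259), and its mean with PBS was 0.296%, or 0.0326% without library 14. That call was lost without library 8, 9 or 14 (edgeR adjusted p = 0.0572, 0.0509 and 0.0573; range over alternatives 0.00219 to 0.0573).

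ASV105, the variant of this rank with the most counts, was at 0.319% and 0.0367% in libraries 9 and 10 and at 0.258%, 0.0659%, 1.30% and 0.283% in libraries 12 to 15, and did not pass (edgeR adjusted p = 0.481). ASV115 was in all 8 libraries after DSS, at 0.0829% to 0.302% with GPR15L and 0.0420% to 0.541% with PBS, and did not pass in any comparison. ASV199 and ASV257 occurred in the same 5 libraries (2, 3, 4, 5 and 14), at 0.0302% to 0.269% and 0.0191% to 0.0860%. The other 7 variants of this rank had 65 counts or fewer each.

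Acutalibacter, a genus used in defined mouse gut communities, had 9 variants, each with 210 counts or fewer, and did not pass as a genus in any comparison. Its shares were 0.0235%, 0.0758%, 0.00957% and 0.0150% in libraries 8 to 11 and 0.0452%, 0.0480%, 0.116% and 0.0415% in libraries 12 to 15. No variant passed between the arms after DSS. ASV244 and ASV266, the most abundant, were in 3 PBS libraries each and no GPR15L library (edgeR adjusted p = 0.0757 and 0.0613), and ASV273, the next, was in 2 libraries of each arm (0.927). ASV312 was in 3 GPR15L libraries and no PBS library (0.0534). Library 4 held 8 of the 9 variants. Paludicola, 1 variant (ASV347), was found in library 6 (16 counts) and library 7 (19 counts) alone and was not tested.

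Before DSS, when neither arm had received peptide or placebo, no variant, genus or family of the 3 families passed between the arms (edgeR; 0 of 21, 0 of 9 and 0 of 3, where 1.77% of all variants, 0% of genera and 0% of families passed). At an unadjusted p under 0.05 there were 4 variants, 0 genera and 0 families, against 50, 13 and 7 over all features tested. DESeq2 called 0 at each level, against 17 of 266 variants, 4 of 74 genera and 6 of 37 families with an adjusted p over all features. It gave Christensenellaceae as a family no adjusted p in this or any other comparison. Without library 4, the PBS library with the most variants, Agathobaculum passed as higher in the GPR15L arm (edgeR adjusted p = 0.00877); libraries 5 and 6 held no count of it.

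Over the DSS course, 1 of 21 variants (ASV119) and 2 of 9 genera (the [Eubacterium] siraeum group and Ruminococcus) were higher after DSS in the PBS arm, where 1.77% of all variants and 3.85% of all genera were higher. No family of the 3 passed there (edgeR, 0 at an unadjusted p under 0.05, 0 of the 2 with an adjusted p by DESeq2; 5.26% of all families passed). DESeq2 called 4 variants and 5 genera in this arm, in either direction, and gave 7 of the 21 variants no adjusted p. Over all features with an adjusted p it called 51 of 228 variants and 13 of 62 genera. In the GPR15L arm 1 variant was higher (ASV143; 8.87% of all variants were higher) and 3 were lower (ASV106, ASV181 and ASV204; 19.5% were lower). Of the genera UCG-009 was lower (7.69% of all genera were lower). No family passed (1 at an unadjusted p under 0.05, 0 of the 2 by DESeq2; 2.63% of all families passed). The fall of ASV204 rested on library 1, the only library of its group with a count, and its edgeR adjusted p was 1.00 without it; the call held in 1 of 11 alternatives. The comparisons over DSS share their libraries after DSS with the comparison of the arms, so their calls are not independent of it. No label links a library before DSS to one after it from the same mouse, and the tests treat all libraries as independent.

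The DSS courses of the arms differed for UCG-009 (edgeR adjusted p = 0.0247; 2.56% of all genera were called lower) and for its variant ASV106 (0.0279; 6.38% of all variants were called lower). The [Eubacterium] siraeum group and Ruminococcus had no count in either GPR15L group, so the edgeR test could not decide whether their courses differed. Their log2 differences were -12.0 ± 13108.5 SE and -9.39 ± 13122.4 SE. For ASV119, ASV245, ASV139, ASV143, ASV181, ASV266 and ASV285 the SE ran from 380 to 16088.9, so no conclusion is drawn for these. Counts of UCG-009 fell with GPR15L from 0.0952% to 0, while with PBS its mean went from 0.154% ± 0.153 (n = 3) to 0.291% ± 0.149 (n = 4). Without library 1, 3, 5, 8 or 14 the difference for the genus did not pass (edgeR adjusted p = 0.0622, 0.0539, 0.0623, 0.0613 and 0.0695), nor with library 7 as titled (0.163; range over alternatives 3.19e-05 to 0.163). For ASV106 it did not pass without library 5 or 12 (edgeR adjusted p = 0.0680 and 0.0501) or with library 7 as titled (0.0919). The courses also differed for ASV312 (edgeR adjusted p = 0.0404; 3.55% of all variants were called higher), found in 2 PBS libraries before DSS and 3 GPR15L libraries after it with at most 23 counts each. Christensenellaceae passed as a family (0.0436; 5.26% of all families were called lower) and not as a genus rank (0.0808). The family call was lost without library 1 (edgeR adjusted p = 1.00), 5, 6, 8, 9, 11, 13, 14 or 15, and the ASV312 call held in 6 of 18 alternatives.

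Families related by order or class were read beside these. After DSS, 17 tested Ruminococcaceae variants gave 0 higher and 3 lower with GPR15L, and 39 tested Oscillospiraceae variants gave 5 higher and 12 lower. Lachnospiraceae gave 14 higher and 11 lower of 100, and the Clostridia vadinBB60 group 0 higher and 10 lower of 13. Whether these families differ from one another in this was not tested.

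Library 7 held 5 variants of the 3 families and 0.0867% of its 167329 counts in them (95% Wilson interval 0.0737% to 0.102%, for counting error only), the lowest share of all libraries. ASV209 made up 0.0430% (0.0342% to 0.0542%), ASV115 0.0227% (0.0165% to 0.0312%), ASV347 0.0114% (0.00727% to 0.0177%), ASV65 0.00657% (0.00367% to 0.0118%) and ASV143 0.00299% (0.00128% to 0.00700%). ASV119, ASV245, ASV106 and ASV204, found in all of libraries 12 to 15, had no count, which allows up to 0.00179% each. In all it held 93 variants, of which it shared 74 with library 6 (79.6% of its own and 80.4% of those of library 6). With libraries 4, 8 and 10 it shared 77.4%, 75.3% and 74.2% of its own variants. Its Bray-Curtis distance, a measure of difference in composition, was 0.547 to library 6. To the other libraries it ran from 0.528 (library 1) to 0.766 (library 14), and to library 11, taken after DSS, it was 0.562. With library 7 counted as titled, 6 variants, 2 genera and 0 families were called between the arms after DSS, counting the 3 families alone. The share called over all features is not given for that fit. ASV204 was no longer among the variants (edgeR adjusted p = 0.0597), so these were not the same 6 as in the main fit.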

How the data were processed

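Per the labels' protocols, faecal DNA was extracted and V4 of bacterial 16S rRNA genes was sequenced. The authors deposited whole-number read counts per ASV; DADA2 appears in the name of that table, and the taxonomy database was not given in the sources used here. The submitters' processing notes name R 4.5.1 and limma. Of 3697 rows, 3190 were at 0 in all 15 libraries. The 3 families and the lists were chosen with earlier results of these data known.

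One edgeR 4.0.16 model (R 4.3.3) held the 14 libraries with a group, TMMwsp scaling, and all ASVs, genera or families with at least 10 counts in all and a count in 3 or more libraries. Of the 38 variants, 21 were tested (96.2% of their counts), 7 had under 10 counts and 10 were in under 3 libraries. ASV119, ASV245, ASV139 and ASV204 met the limit on libraries only through the PBS libraries after DSS, where they are high. Their p-values, and those of their genera, describe that distribution and are no separate support for it. SE is the absolute log2 fold change over the square root of F. By rule the text names every genus, the variants past 0.05 in any of 5 comparisons and the most abundant variant of each genus; other variants were named after their values were seen. Alternatives were scaling by total counts, DESeq2 1.42.0 with poscounts, no filter, a fit of the 2 groups compared, library 7 in its titled group, leaving out single libraries and, added after seeing the data, Incertae Sedis as a rank of its own. Within groups, Bray-Curtis distances ran from 0.163 to 0.742. The edgeR step was also run on simulated counts, with the same starting mean for a variant in all groups and a cap on its spread. These settings differ from the data here, where whole groups are at 0, so that run is no support for the calls. Labels give male mice and the design text both sexes; sex was not used here.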

Additional observations from a re-analysis of the deposited data

Results flagged for a closer look

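In groups of 4 libraries, 16 group levels of these genera and of the 3 families together were examined for 1 library far from the rest. For independent values with a normal spread, chance flags about 1 in 20. These levels share counts and some hold values of 0, so that rate need not apply. Library 14 of the PBS arm after DSS stood far above the other 3 for the 3 families together (4.92% of counts), for Ruminococcaceae without a genus (3.12%) and for Acutalibacter (0.116%). With GPR15L after DSS, library 9 stood apart for Ruminococcaceae without a genus (0.640%) and library 8 for Harryflintia (0.0249%), where the other 3 had no count.

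The change over DSS differed between the arms by the interaction test of edgeR for UCG-009 (adjusted p = 0.0247) and its variant ASV106 (0.0279). It also differed for ASV312 of Acutalibacter (0.0404) and Christensenellaceae as a family (0.0436). The calls held in 13 of 19 alternatives for UCG-009 and 15 of 18 for ASV106. They held in only 6 of 18 for ASV312 and 6 of 17 for Christensenellaceae, whose call was lost without library 1. The interaction test could not decide for the [Eubacterium] siraeum group and Ruminococcus, which had no count in either GPR15L group.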

How the results depend on the processing

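No paired analysis was possible because the labels number the libraries from 1 to 15, no 2 groups share a number, and no label links stool of the same mouse before and after DSS. None of the 24 calls of single taxa turned direction in the 330 fits of alternatives. For most of them a compared group had no count in any library, so the direction could not turn. Of the fits, 212 kept the call and 118 did not, and 7 calls held under every alternative run. Calls of a variant, its genus and its family can rest on the same counts, so the calls are not independent. The 7 include both ASV119 and the [Eubacterium] siraeum group, which it makes up alone, and both ASV106 and UCG-009. With library 7 as titled, the arms after DSS gave 2 genera and 0 families, the PBS arm over DSS 0 variants and 0 genera, the GPR15L arm 2 variants, and the difference of the courses 0 variants, 0 genera and 0 families. DESeq2 gave 4 variants and 5 genera in the PBS arm, where it called 51 of 228 variants and 13 of 62 genera with an adjusted p over all features. In the GPR15L arm it gave 2 genera, where it called 14 of 72. For the difference it gave 3 genera, where it called 11 of 74. It gave Christensenellaceae as a family no adjusted p, so its family counts are left out where edgeR called it. Without a filter there were 2 variants and 1 genus in the PBS arm, and 2 genera and 1 family in the GPR15L arm. A fit of 2 groups gave 10 variants between the arms after DSS and 2 in the PBS arm. Total-count scaling gave 1 genus in the PBS arm, 2 variants in the GPR15L arm and 0 families for the difference. Incertae Sedis kept apart gave 1 genus in the PBS arm. Apart from those of DESeq2, the numbers of calls here and below are for the 3 families alone. Whether they moved with the number of calls over all features was not tested, so they are no result about these families. In the main fit edgeR called 79 of all 282 variants between the arms after DSS, and 6 of the 21 of these families.

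Leaving out single libraries gave 2 to 4 genera and 0 to 1 families between the arms after DSS (2 genera without library 8 or 9, 3 without 12, 13, 14 or 15), and 0 to 1 genera before DSS. It gave 0 to 2 variants and 1 to 2 genera in the PBS arm. In the GPR15L arm the ranges were 1 to 2 variants, 0 to 1 genera and 0 to 1 families, and for the difference 0 to 3 variants, 0 to 3 genera and 0 to 1 families. Total-count scaling moved the median log2 difference over all genera from -0.54 to -1.13 between the arms before DSS. For the courses it moved from -0.56 to -0.75 (PBS) and from 0 to 0.24 (GPR15L), and for their difference from 0.48 to 0.96. Groups of 3 or 4 libraries and variants of under 100 counts limit the precision.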
